A study of Mus musculus with 6 samples.

Results

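The 10 genes described here encode hormones and hormone subunits that the liver secretes into the blood: *Fgf21*, *Gdf15*, the activin and inhibin β subunits *Inhba*, *Inhbc* and *Inhbe*, the fetuins *Ahsg* and *Fetub*, *Fgl1*, *Selenop* and *Rbp4*. They were taken by name from a table of 31950 genes, and each name matched 1 row. RNA was sequenced from the livers of 3 wild-type (WT) and 3 *β-cateninΔ(ex3)/+* C57BL/6 mice, 1 library per liver, with an age of 8 weeks in the labels of both groups. The mutant mice carry 1 *Ctnnb1* allele without exon 3, the part of β-catenin through which it is marked for breakdown, so that Wnt signaling is held on. The labels give no Cre driver, inducing agent or sex. Elsewhere in the study the name *β-cateninΔ(ex3)/+* liver is used for mice in which tamoxifen switched on an albumin-driven Cre in hepatocytes, and other experiments used Cre-adenovirus, which deletes exon 3 in only some of the cells; which of these models gave the RNA is not stated in the sources used here. The comparison asks how the transcripts of these liver hormones differ between livers with and without the activated β-catenin.

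Hormones from the liver, often called hepatokines, report the metabolic state of the organ to fat, muscle and brain. FGF21 is released on fasting, protein shortage and sugar intake and acts through FGF receptors bound to β-Klotho, and GDF15 is a stress hormone that lowers appetite through the brain receptor GFRAL. The activin subunits pair with each other into activins or with the α subunit into inhibins, signal through type I and type II receptor kinases and the Smads, and are blocked by follistatins. Fetuin-A, fetuin-B, selenoprotein P and retinol-binding protein are abundant plasma proteins made mainly by hepatocytes.

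Values are in FPKM, a fragment number divided by transcript length and by sequencing depth, so levels may be set side by side between genes. No read totals were used; depth was estimated, from the steps in which 8647 genes of 1 exon take their low values, at 24.65, 24.55 and 24.5 M fragments for WT replicates 1 to 3 and 19.1, 16.95 and 19.55 M for *β-cateninΔ(ex3)/+* replicates 1 to 3. Of the low values checked, 19.7% to 27.5% fell on a step where 4% would by chance, which makes the depths rough. Tests were run with limma on log2(FPKM + 1) over the 13243 genes with a mean of at least 0.5 FPKM, and all 10 hormone genes passed this filter. A gene was called at a Benjamini-Hochberg adjusted p under 0.05 and a fold change of at least 2 on the log2(FPKM + 1) scale. In the text a list gene "rose" or "fell" only if called. On this scale the change of a gene with low FPKM is understated, so it can differ more than 2-fold in FPKM and not be called.

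WT replicate 2 stood apart from the other livers of its group. In its pairs the median squared difference was 4.88 and 4.62 times that of counting noise alone. In the pairs without it, in both groups, it was 2.40 to 2.79 times. Each hormone gene kept its direction and call without this liver. The livers were then checked against their labels. *Alb*, albumin, at 24721 FPKM or more in each liver, was the most abundant of the 11 hepatocyte markers in the table. Of 16 Wnt target genes, 9 rose and 0 fell in *β-cateninΔ(ex3)/+* livers, and 8 rose after median-ratio scaling or quantile normalization. Among the 9 were *Glul*, glutamine synthetase, with a log2 fold change of 2.59, *Oat*, ornithine aminotransferase, with 5.19, and *Axin2*, a feedback inhibitor of the pathway, with 1.86. Genes of periportal hepatocytes, which β-catenin activity is known to hold down, did not fall together: of 10 tested 5 rose and 2 fell, with a median log2 fold change of 1.21 beside 1.34 for the Wnt targets. *Cyp2f2*, a cytochrome P450 gene, rose with 3.60 and *Ass1*, of the urea cycle, with 2.17, while *Pck1*, of gluconeogenesis, fell with -1.45. Other differences went with the groups as well. *Xist*, transcribed from the inactive X chromosome, had 20.3, 22.2 and 21.1 FPKM in WT livers and at most 0.0146 FPKM in *β-cateninΔ(ex3)/+* livers, where the Y-linked *Eif2s3y* had 9.94, 9.20 and 9.37 FPKM. All 11 male-biased liver genes tested rose in *β-cateninΔ(ex3)/+* livers, 9 of them also after either scaling, while of 12 female-biased genes 7 fell and 2 rose.

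Genes of the young liver went the same way as the groups. *H19*, an imprinted RNA of growing tissue, had 2320, 2374 and 2364 FPKM in WT livers and at most 0.0480 FPKM in *β-cateninΔ(ex3)/+* livers. *Igf2*, its imprinted neighbour, had 836, 803 and 847 FPKM in WT livers and was listed at 0 in each *β-cateninΔ(ex3)/+* liver. *Afp*, α-fetoprotein, had 601, 612 and 610.5 FPKM in WT livers against 2.48, 2.38 and 2.81 FPKM. Of 14 young liver genes tested 11 fell and 0 rose. At an adjusted p under 0.05 with any fold change 3 were higher and 11 lower. With a pseudocount of 0.1 *Ect2* was called higher, with a log2 fold change of 1.53. The WT livers thus stood apart from their label of adult liver, all 3 alike, so no result can be given without them. Genotype, sex-linked expression and young liver expression cannot be told apart for any gene below.

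**Figure D1:**
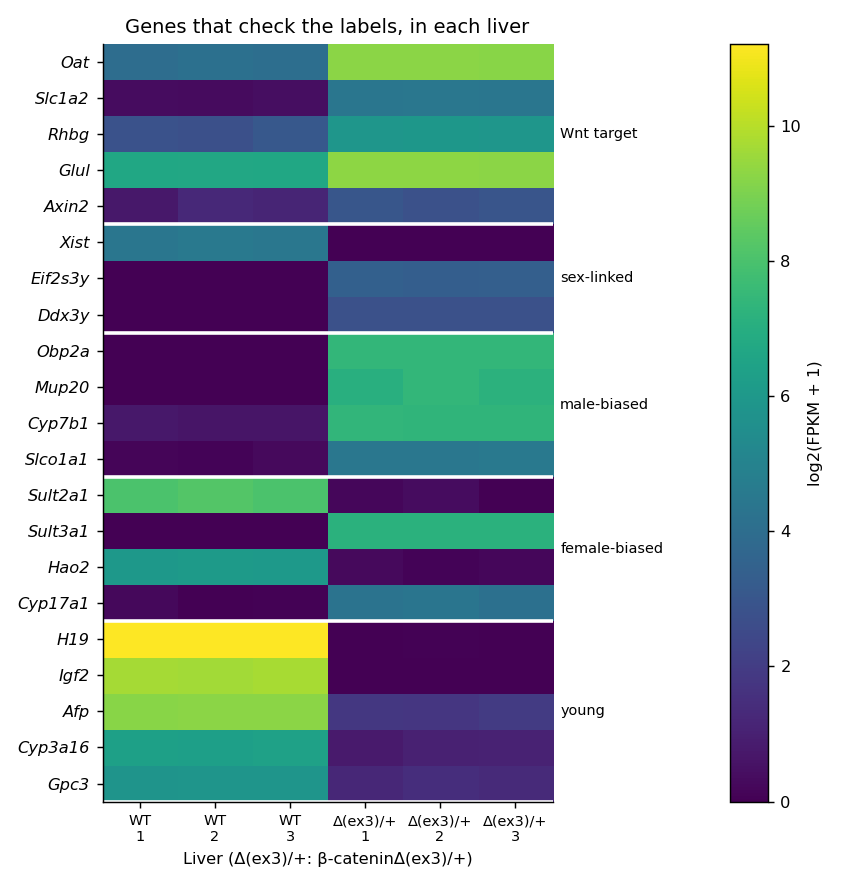
Expression of Wnt target, sex-linked, male-biased, female-biased and young liver genes (rows) in each liver (columns), with color giving log2(FPKM + 1). The 3 livers of a group look alike in each row, and *Xist*, *H19*, *Igf2* and *Afp* are high in the 3 WT livers only.

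The 11 hepatocyte markers summed to 79951, 80614 and 77117 FPKM in WT and 46202, 46302 and 45972 FPKM in *β-cateninΔ(ex3)/+* livers. Single markers went both ways: of 11 tested 2 rose and 2 fell, with a median log2 fold change of 0.68. At an adjusted p under 0.05 with any fold change 6 were higher and 4 lower. *Apoa1*, the main protein of HDL, fell with a log2 fold change of -2.01 and *Ttr* with -1.42, *Alb* had -0.74, under 2-fold, and *Hpx* and *Hnf4a* rose, though neither was called with median-ratio scaling. *Fetub*, *Rbp4* and *Selenop* had smaller decreases than *Alb*, and the part of this lower sum in the values of the hormone genes was not tested.

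Markers of cells other than hepatocytes moved too. The 14 stellate cell markers, with *Ecm1* the most abundant, summed to 167, 173 and 172 FPKM in WT and 58.9, 68.8 and 73.0 FPKM in *β-cateninΔ(ex3)/+* livers, and 7 of 13 tested fell. With median-ratio scaling or quantile normalization 10 of them were lower, and at a pseudocount of 0.1 9 were. The 12 endothelial markers, led by *Clec4g*, summed to 113, 114 and 115 FPKM against 73.4, 73.1 and 75.7 FPKM, and 3 of 12 fell. These 2 lists held no marker under 0.1 FPKM in all livers. The cholangiocyte markers, led by *Spp1* and with *Cftr* near 0, summed to 55.7, 54.0 and 52.1 FPKM against 20.1, 19.7 and 20.5 FPKM, and 2 of 5 tested fell. The Kupffer and myeloid markers, led by *S100a9* in WT and *C1qa* in *β-cateninΔ(ex3)/+* livers, went the other way, from 615, 625 and 631 FPKM to 834, 826 and 818 FPKM, with 5 of 12 tested higher and 3 lower. The erythroid markers, led by the globin genes *Hba-a1* and *Hba-a2*, summed to 3609, 3310 and 3654 FPKM against 1873, 1836 and 1811 FPKM, with 5 of 9 lower, and of 9 lymphocyte markers 4 fell and 1 rose. At a pseudocount of 0.1 3 lymphocyte markers were higher and 4 lower. *Adipoq*, adiponectin, an adipocyte gene named after its values were seen, had 0.0734, 0 and 0 FPKM in WT and 5.86, 4.78 and 6.26 FPKM in *β-cateninΔ(ex3)/+* livers. In whole liver RNA, fewer cells of a type and less RNA per cell cannot be told apart, and the part of these cells in the results below was not tested.

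Of the 10 hormone genes, 1 was higher and 4 were lower in *β-cateninΔ(ex3)/+* livers at both thresholds, against 8.17% of all genes tested that were higher and 4.52% that were lower. *Gdf15* was the gene that rose, and *Fgf21*, *Ahsg*, *Inhbc* and *Inhbe* were those that fell. At an adjusted p under 0.05 with any fold change all 10 passed, 2 higher and 8 lower, but so did 57.0% of all genes tested. The livers of the groups did not overlap for any of the 10, as was the case for 66.0% of the genes tested. The median log2 fold change was -0.58 over the 10 and 0.14 over all genes tested. Median-ratio scaling moved the latter by -0.14 and quantile normalization by -0.16, and the share of higher genes among all calls went from 64.4% to 53.0% and 49.5%; the direction and call of each of the 10 were unchanged by both. Each hormone gene gave p = 0.1 in a two-sided exact permutation test, the smallest p that 3 livers against 3 allow.

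**Figure D2:**
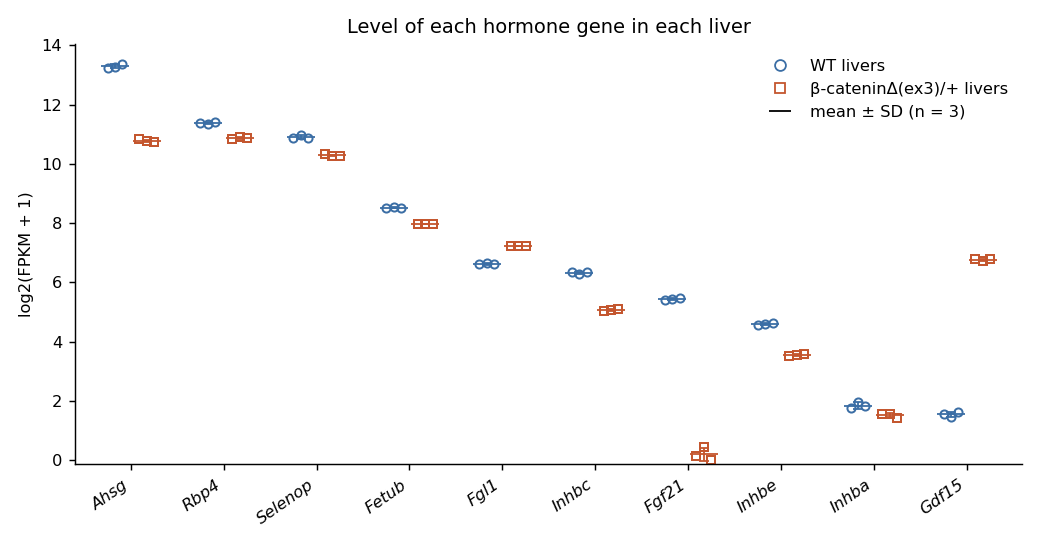
Level of the 10 hormone genes as log2(FPKM + 1) in each WT (circles) and *β-cateninΔ(ex3)/+* (squares) liver, with mean and SD (n = 3), ordered by WT level. *Gdf15* moves from the lowest place to the sixth and *Fgf21* drops to near 0, while replicates lie close together.

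**Figure D3:**
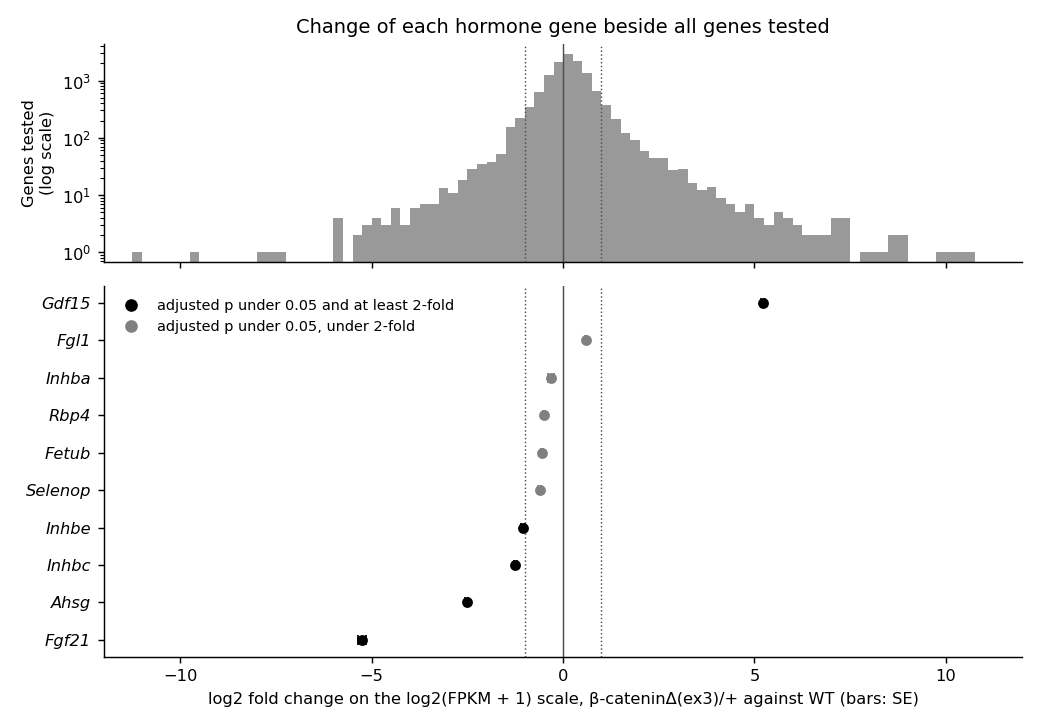
Log2 fold change of each hormone gene with its standard error (lower panel; black, past both thresholds) below the distribution over the 13243 genes tested (upper panel, log count axis). *Gdf15* at 5.22 and *Fgf21* at -5.25 lie in the outer tails, and the 5 grey genes lie within the dotted lines at 2-fold.

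*Gdf15* (ENSMUSG00000038508, minus strand of chr8:70629393-70632456) encodes growth differentiation factor 15. It had 1.96, 1.71 and 2.09 FPKM in WT and 108.7, 104.7 and 109.2 FPKM in *β-cateninΔ(ex3)/+* livers. Every *β-cateninΔ(ex3)/+* liver thus stood far above every WT liver. The ratio of the means was 56.0, and the log2 fold change was 5.22 (SE 0.059, adjusted p = 4.43e-08 by limma), which placed *Gdf15* at rank 43 of the genes tested by increase. Of 10 neighbours tested within 100 kb, 3 rose and 0 fell. These were *Isyna1*, which makes inositol phosphate, from 7.55 ± 0.335 to 71.6 ± 1.70 FPKM (SD, n = 3), *Pgpep1*, a peptidase, from 8.81 ± 0.798 to 27.2 ± 1.28 FPKM, and the transcription factor gene *Jund*, from 37.2 ± 11.0 to 119 ± 4.72 FPKM. *Jund* was low in WT replicate 2, at 24.6 FPKM against 44.5 and 42.4 FPKM in the other WT livers. *Ret*, the signaling partner of the GDF15 receptor, was at most 0.0298 FPKM in any liver; no row was matched to *Gfral* by name.

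*Fgf21* (ENSMUSG00000030827, minus strand of chr7:45613886-45615490) encodes fibroblast growth factor 21. It had 41.3, 42.7 and 43.4 FPKM in WT livers, a coefficient of variation of 2.53%, and 0.110, 0.345 and 0 FPKM in *β-cateninΔ(ex3)/+* livers. The high livers were thus the 3 WT livers, and *β-cateninΔ(ex3)/+* replicate 3 was listed at 0. At the estimated depths 1 fragment was worth 0.0551, 0.0620 and 0.0538 FPKM in the *β-cateninΔ(ex3)/+* livers, so their values rest on a handful of fragments, against 968.6 to 1012 fragments in a WT liver. The log2 fold change was -5.25 (SE 0.11, adjusted p = 4.67e-07 by limma), the 12th largest decrease of all genes tested. With a pseudocount of 0.1 it was -7.66, since the value in *β-cateninΔ(ex3)/+* livers is near 0. Of 7 neighbours tested within 100 kb only *Dbp*, a clock-controlled transcription factor gene, was called; it fell from 5.19 ± 0.616 to 0.437 ± 0.107 FPKM (SD, n = 3).

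The 250 bases before the RefSeq start of *Fgf21* are shown because they hold TTGCATCA, the composite element bound by C/EBP and ATF factors such as ATF4, and those of *Gdf15* because this gene moved the other way and its window does not hold these letters. Sequences are from RefSeq on GRCm38.p6, 5′ to 3′ on the minus strand, where both genes lie, with the element in capitals.
*Fgf21*, chr7:45615491-45615740: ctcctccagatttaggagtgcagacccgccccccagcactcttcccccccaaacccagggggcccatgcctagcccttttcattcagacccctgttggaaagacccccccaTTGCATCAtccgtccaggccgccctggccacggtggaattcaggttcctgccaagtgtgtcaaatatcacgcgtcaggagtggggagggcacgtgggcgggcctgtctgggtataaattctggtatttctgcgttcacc
*Gdf15*, chr8:70632457-70632706: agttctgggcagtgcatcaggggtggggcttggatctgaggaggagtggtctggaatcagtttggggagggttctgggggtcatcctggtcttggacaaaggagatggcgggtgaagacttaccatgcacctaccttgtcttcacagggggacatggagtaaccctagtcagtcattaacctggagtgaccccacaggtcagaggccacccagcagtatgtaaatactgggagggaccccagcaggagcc

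Windows of 250 bases were found for 9 of the 10 genes, all but *Fgl1*, and each was searched on both strands. TTGCATCA or its complement TGATGCAA was present in the windows of *Fgf21*, 139 to 132 bases before the start, and of *Inhbe*, 181 to 174 bases before it, and in 0.791% of all 32851 mouse windows. The CACGTG E-box was present in *Fgf21* alone among the windows used, against 6.02% of all windows; an alternative *Gdf15* window holds it too. The TCF/LEF core CTTTGAT was found in 1 of the 9, *Rbp4*, as ATCAAAG 30 to 24 bases before the start, against 3.21% of all windows. These are matches of letters and were not tested for binding. The *Inhbe* window lies inside the longer gene model in the table, since its RefSeq start is 2563 bases downstream of that model's start, so only the site is printed. The windows of *Selenop* and *Ahsg* lie just before RefSeq starts that are 2220 and 738 bases inside the gene limits of the table, so they too are not the bases before those limits.
*Inhbe*, minus strand of chr10:127352011-127352040: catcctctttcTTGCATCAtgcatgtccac

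Of 7 FGF21 receptor and FGF ligand genes tested, 0 rose and 1 fell, with a median log2 fold change of -0.25, and of -0.39 with median-ratio scaling or -0.41 with quantile normalization. *Fgf1*, an insulin-sensitizing growth factor gene and the most abundant in WT livers, had 15.3, 15.4 and 12.3 FPKM in WT and 8.90, 10.6 and 8.68 FPKM in *β-cateninΔ(ex3)/+* livers, a log2 fold change of -0.56. *Fgfr4*, the main FGF receptor of hepatocytes and the most abundant of the list in *β-cateninΔ(ex3)/+* livers, went the other way, with a log2 fold change of 0.65, under 2-fold. *Fgfr3*, another receptor gene, had 0.156, 0.264 and 0.176 FPKM in WT and 1.13, 1.27 and 1.23 FPKM in *β-cateninΔ(ex3)/+* livers, with a log2 fold change of 0.88 that was 2.15, past both thresholds, at a pseudocount of 0.1. The gene that fell was *Fgfr2*, a receptor gene, from 2.87 ± 0.162 to 0.876 ± 0.223 FPKM (SD, n = 3). Without *β-cateninΔ(ex3)/+* replicate 2 it was not called, with a log2 fold change of -0.96 on the log2(FPKM + 1) scale. *Klb*, which encodes β-Klotho, had 2.88, 3.50 and 3.10 FPKM in WT and 1.78, 2.10 and 1.95 FPKM in *β-cateninΔ(ex3)/+* livers, a log2 fold change of -0.50 (limma adjusted p = 0.00254). *Fgf15*, the intestinal hormone of the same subfamily, was listed at 0 in every liver. Over the 6 livers the genes whose log2(FPKM + 1) followed that of *Fgf21* most closely were *Mest*, *Kng1*, *Abhd2*, *Fmo2* and *Sult2a1*, with Pearson's r from 0.9997 for *Sult2a1* to 0.99999 for *Mest*. Since the groups lie this far apart, 1756 genes had an r beyond 0.99 in either direction, and these 5 are singled out by small margins.

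The activin and inhibin β subunit genes were lower in *β-cateninΔ(ex3)/+* livers throughout, by very different amounts. *Inhbc* (ENSMUSG00000025405, chr10:127356322-127370431), the βC subunit and the most abundant, had 80.0, 76.2 and 79.9 FPKM in WT and 31.5, 32.6 and 33.0 FPKM in *β-cateninΔ(ex3)/+* livers. Its log2 fold change was -1.26 (SE 0.038, adjusted p = 2.07e-06 by limma). *Inhbe* (ENSMUSG00000047492, chr10:127348857-127354411), the βE subunit, had 22.6, 23.3 and 23.9 FPKM in WT and 10.5, 10.7 and 11.0 FPKM in *β-cateninΔ(ex3)/+* livers. The levels of both thus fell to less than 0.5 of WT in each liver, with a log2 fold change of -1.05 for *Inhbe* (SE 0.043, adjusted p = 7.20e-06 by limma). Both genes lie on the minus strand 1910 bases apart, and the *Inhbc* to *Inhbe* ratio was 3.54, 3.26 and 3.35 in WT and 3.01, 3.06 and 2.99 in *β-cateninΔ(ex3)/+* livers. Of their neighbours tested within 100 kb none but the pair itself was called; *Ddit3*, the stress gene 52568 bases from *Inhbe*, went the other way with a log2 fold change of 0.86, under 2-fold.

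*Inhba* (ENSMUSG00000041324, plus strand of chr13:16011851-16031621), the βA subunit of activin A, was a minor transcript. It had 2.37, 2.87 and 2.52 FPKM in WT and 1.96, 1.93 and 1.71 FPKM in *β-cateninΔ(ex3)/+* livers, a log2 fold change of -0.32 (SE 0.076, adjusted p = 0.0128 by limma). The groups did not overlap, yet the gap between the lowest WT and the highest *β-cateninΔ(ex3)/+* liver was small, and the gene was not called. *Inhbb*, the βB subunit, moved most of the 4 β subunit genes, from 18.5, 19.6 and 18.2 FPKM to 0.185, 0.279 and 0.289 FPKM (log2 fold change -3.98, SE 0.060, limma adjusted p = 1.24e-07). *Inha*, the α subunit needed for inhibins, was at most 0.798 FPKM in any liver and not tested.

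Of 11 other TGF-β family ligands and subunits tested, *Inhbb* among them, 1 rose and 4 fell, with a median log2 fold change of -0.51. *Gdf10* fell from 4.75 ± 0.336 to 0.502 ± 0.126 FPKM (SD, n = 3), *Gdf2*, which encodes BMP9, from 11.3 ± 0.336 to 3.725 ± 0.438 FPKM, and *Bmp10* from 1.71 ± 0.187 to 0.305 ± 0.0929 FPKM. *Bmp7* rose from 0.228 ± 0.0657 to 3.67 ± 0.0848 FPKM. Stellate cell markers moved in the same direction as *Gdf2* and *Bmp10*, with the summed levels given above. Among 21 receptors, Smads and inhibitors tested, 0 rose and 2 fell: *Fstl1*, a follistatin-like protein gene, from 7.41 ± 0.523 to 1.18 ± 0.148 FPKM and *Bambi*, a decoy receptor gene, from 1.83 ± 0.0508 to 0.345 ± 0.0719 FPKM. *Eng*, endoglin, the most abundant of this list, had a log2 fold change of -0.18, and the type II activin receptor gene *Acvr2a* one of -0.21. *Fst*, follistatin, had 0.612, 0.952 and 1.27 FPKM in WT and 0.885, 0.768 and 0.934 FPKM in *β-cateninΔ(ex3)/+* livers, so the groups overlapped.

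**Figure D4:**
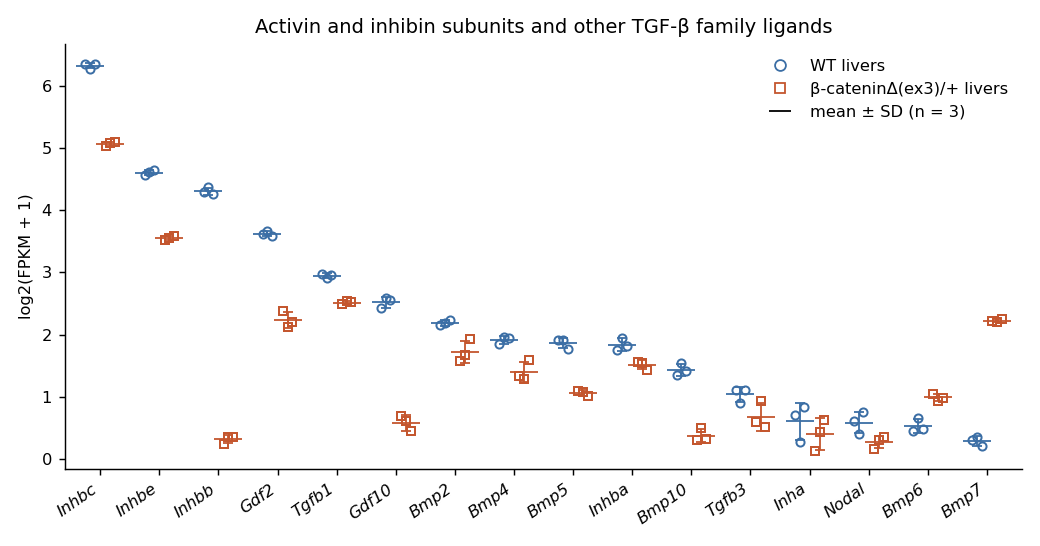
Activin and inhibin subunit and other TGF-β family ligand genes with a group mean of at least 0.5 FPKM, as log2(FPKM + 1) in each WT (circles) and *β-cateninΔ(ex3)/+* (squares) liver, with mean and SD (n = 3). *Inhbc*, *Inhbe* and *Inhbb* lead in WT livers, *Inhbb* is near 0 in *β-cateninΔ(ex3)/+* livers, and *Bmp7* goes from near 0 in WT to 3.67 FPKM.

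*Ahsg* (ENSMUSG00000022868, plus strand of chr16:22891277-22899449) encodes fetuin-A, which binds calcium phosphate and inhibits the insulin receptor. It had 9722, 9790 and 10629 FPKM in WT and 1815, 1728 and 1714 FPKM in *β-cateninΔ(ex3)/+* livers, so the lowest WT liver was more than 5 times the highest *β-cateninΔ(ex3)/+* liver. The WT mean was 5.73 times that of *β-cateninΔ(ex3)/+* livers, and the log2 fold change was -2.52 (SE 0.043, adjusted p = 1.91e-07 by limma). *Ahsg* alone made up 65.3%, 65.4% and 67.2% of the summed FPKM of the 10 genes in WT livers and 33.1%, 31.9% and 31.8% in *β-cateninΔ(ex3)/+* livers. Its ratio to *Alb* was 0.235, 0.226 and 0.268 in WT and 0.0732, 0.0691 and 0.0693 in *β-cateninΔ(ex3)/+* livers. *Gm30505*, on the other strand, overlaps *Ahsg* and fell from 2.58 ± 0.247 to 0.604 ± 0.234 FPKM (SD, n = 3); whether strand was used in counting is not stated in the sources used here.

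*Fetub* (ENSMUSG00000022871, plus strand of chr16:22918334-22939778), fetuin-B, an inhibitor of the egg protease ovastacin, lies 18884 bases from *Ahsg* and changed much less. It had 364, 370.3 and 360.4 FPKM in WT and 248.3, 248.5 and 249.1 FPKM in *β-cateninΔ(ex3)/+* livers. Its log2 fold change of -0.55 (SE 0.024, adjusted p = 1.01e-05 by limma) was under 2-fold. *Hrg*, histidine-rich glycoprotein, is the next gene of this cystatin cluster, and its WT livers had 513, 501.4 and 512 FPKM against 470.5, 482 and 486.5 FPKM, a log2 fold change of -0.085. *Dnajb11*, an endoplasmic reticulum chaperone gene 18811 bases on the other side of *Ahsg*, rose from 14.7 ± 0.914 to 40.8 ± 0.692 FPKM. Of the 9 cystatin superfamily and fetuin partner genes tested 0 rose and 3 fell, with a median log2 fold change of -0.44, which was -0.72 after quantile normalization. These were *Spp2*, a bone matrix phosphoprotein gene, with -2.06, *Alpl*, alkaline phosphatase, with -1.45, and *Kng1*, kininogen, the most abundant, with -1.19.

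*Rbp4* (ENSMUSG00000024990, minus strand of chr19:38116629-38125281) encodes the plasma carrier of retinol. It had 2671, 2572 and 2720 FPKM in WT and 1844, 1905 and 1894 FPKM in *β-cateninΔ(ex3)/+* livers, a log2 fold change of -0.50 (SE 0.029, adjusted p = 3.10e-05 by limma), under 2-fold. *Ttr*, transthyretin, which travels in plasma in a complex with RBP4, fell more, from 11816, 12571 and 11202 FPKM to 4445, 4426 and 4458 FPKM. The *Rbp4* to *Ttr* ratio was therefore higher in every *β-cateninΔ(ex3)/+* liver, at 0.415, 0.430 and 0.425 against 0.226, 0.205 and 0.243. Of 12 genes of retinol transport and storage tested 3 rose and 4 fell. The increases were those of *Aldh1a1*, which makes retinoic acid, with a log2 fold change of 6.15, *Cyp26a1*, which breaks it down, with 4.98, and *Rdh11*, a retinal reductase gene, with 2.73. *Lrat*, which esterifies retinol for storage, fell with -1.43. It is also a stellate cell marker, and of that list 7 of 13 tested fell. Of 4 neighbours of *Rbp4* tested within 100 kb 0 rose and 2 fell. *Ffar4*, a fatty acid receptor gene 2365 bases away, fell from 1.47 ± 0.321 to 0.207 ± 0.0576 FPKM (SD, n = 3), and *Pde6c*, 7499 bases away, had 11.0, 14.4 and 12.7 FPKM in WT livers and was listed at 0 in each *β-cateninΔ(ex3)/+* liver.

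*Selenop* (ENSMUSG00000064373, plus strand of chr15:3268547-3280508) encodes selenoprotein P, which carries selenium from the liver to other organs. It had 1886, 1998 and 1865 FPKM in WT and 1276, 1239 and 1237 FPKM in *β-cateninΔ(ex3)/+* livers, with no overlap and a log2 fold change of -0.61 (SE 0.033, adjusted p = 2.37e-05 by limma). Of 23 other genes of selenium handling tested 4 rose and 0 fell, with a median log2 fold change of 0.67, which was 0.41 after quantile normalization. At a pseudocount of 0.1 1 gene, *Selenon*, was lower, with -1.02. *Gpx1*, glutathione peroxidase, the most abundant in every liver but WT replicate 2, had 692, 167 and 712 FPKM in WT and 1681, 1353 and 1635 FPKM in *β-cateninΔ(ex3)/+* livers. WT replicate 2 was far below the others; the log2 fold change was 1.83 (limma adjusted p = 0.0349) with it and 1.14 (limma adjusted p = 0.000727) without it. Leaving out any one *β-cateninΔ(ex3)/+* liver took the call of *Gpx1* away, with limma adjusted p-values from 0.0708 to 0.0910, as did median-ratio scaling (0.0511), quantile normalization (0.0529) and no filter (0.0652). *Gpx3* rose with 1.54, *Selenow* with 1.22 and *Txnrd1*, thioredoxin reductase, with 1.11, and after quantile normalization the last 2 were under 2-fold, with 0.99 and 0.84. With quantile normalization 1 of the 23 was called, *Gpx3*, and with median-ratio scaling 2.

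*Fgl1* (ENSMUSG00000031594, minus strand of chr8:41191434-41215156) encodes fibrinogen-like protein 1, a hepatocyte mitogen and ligand of the immune receptor LAG3. It had 96.7, 99.8 and 96.9 FPKM in WT and 148.6, 147.9 and 148.9 FPKM in *β-cateninΔ(ex3)/+* livers, a log2 fold change of 0.60 (SE 0.028, adjusted p = 1.38e-05 by limma). It was the only hormone gene besides *Gdf15* that was higher, and it was under 2-fold. The fibrinogen chain genes went the other way, with log2 fold changes of -0.41 for *Fga*, -0.35 for *Fgb* and -0.29 for *Fgg*, the most abundant of the list, all under 2-fold. *Fgl2*, a related prothrombinase gene, rose from 1.08 ± 0.0433 to 3.49 ± 0.269 FPKM (SD, n = 3). After median-ratio scaling it was not called, with a log2 fold change of 0.98 on the log2(FPKM + 1) scale. Of 13 acute phase genes tested 8 rose and 0 fell, among them *Orm1* with a log2 fold change of 10.09, *Orm2* with 7.80 and the serum amyloid genes *Saa1* with 6.79 and *Saa2* with 6.05. *Hpx*, hemopexin, the most abundant, rose from 2679.6 ± 38.7 to 5363 ± 28.6 FPKM (SD, n = 3), and median-ratio scaling took its log2 fold change to 0.81, under 2-fold.

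The order of the levels differed between the groups. In WT livers it ran *Ahsg*, *Rbp4*, *Selenop*, *Fetub*, *Fgl1*, *Inhbc*, *Fgf21*, *Inhbe*, *Inhba* and *Gdf15*, and no 2 neighbours in this order overlapped between livers. The step from *Inhbe* down to *Inhba* was 8.99-fold, the largest, and that from *Fgl1* to *Inhbc* 1.24-fold, the smallest. In *β-cateninΔ(ex3)/+* livers *Rbp4* came first, 1.07 times *Ahsg* and without overlap, *Gdf15* was sixth and *Fgf21* last. Together the 10 genes took 3.35%, 3.35% and 3.55% of all FPKM in WT livers and 1.18%, 1.15% and 1.14% in *β-cateninΔ(ex3)/+* livers. Without *Ahsg* their sum was 5166, 5188 and 5194 FPKM in WT and 3669, 3690 and 3684 FPKM in *β-cateninΔ(ex3)/+* livers, so the other 9 were lower together, by a smaller share.

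*Fgf21* and *Gdf15* are known target genes of the stress factor ATF4, so the other genes of that response were set beside them. Of 17 amino acid and ER stress response genes tested 3 rose and 3 fell, with a median log2 fold change of -0.058, and of -0.23 with median-ratio scaling or -0.31 with quantile normalization. Quantile normalization left 2 higher and 4 lower, and a pseudocount of 0.1 gave 5 lower, *Trib3* and *Chac1* with them. The genes that fell make serine and asparagine: *Phgdh* with -2.05, *Asns* with -1.90 and *Psat1* with -1.41. *Ddit4*, an inhibitor of mTORC1, rose with 1.75, *Cebpb* with 1.67 and *Atf3* with 1.12. After quantile normalization *Atf3* was not called, with a log2 fold change of 0.997 on the log2(FPKM + 1) scale. *Cebpb* had 34.9, 16.5 and 31.8 FPKM in WT livers, so WT replicate 2 was again low, against 89.9, 81.9 and 86.7 FPKM. *Atf5*, the most abundant of the list, had a log2 fold change of -0.96, which passed 2-fold after median-ratio scaling, with -1.15. *Atf4* itself, named after its values were seen, had 40.9, 42.3 and 26.7 FPKM in WT and 42.2, 44.5 and 44.6 FPKM in *β-cateninΔ(ex3)/+* livers, with no detectable difference (limma adjusted p = 0.217).

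FGF21 is also made on fasting through PPARα and after sugar through ChREBP. Of 16 fasting and PPARα target genes 3 rose and 3 fell, with a median log2 fold change of -0.48; after quantile normalization 5 fell and the median was -0.75. *Cyp4a14*, a fatty acid hydroxylase gene, fell with -5.78, from 227, 242 and 231 FPKM to 3.60, 3.36 and 2.87 FPKM, and *Cpt1a*, which carries fatty acids into mitochondria, fell with -1.60. *Ehhadh*, of peroxisomal fatty acid oxidation and the most abundant in *β-cateninΔ(ex3)/+* livers, rose with 2.22 and *Acot1*, a thioesterase gene, with 1.68. Of 12 carbohydrate response genes 5 rose and 2 fell, with a median of 0.42, and of 0.23 with median-ratio scaling or 0.18 with quantile normalization. The lipid synthesis genes *Scd1*, *Fasn* and *Elovl6* rose with 7.26, 3.90 and 3.06, and *G6pc*, which releases glucose, fell with -2.05. *Gpd1*, the most abundant by the mean over all 6 livers though not in either group alone, had -0.091 (limma adjusted p = 0.0652). The lists thus held genes that moved with *Fgf21* and genes that moved against it.

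**Figure D5:**
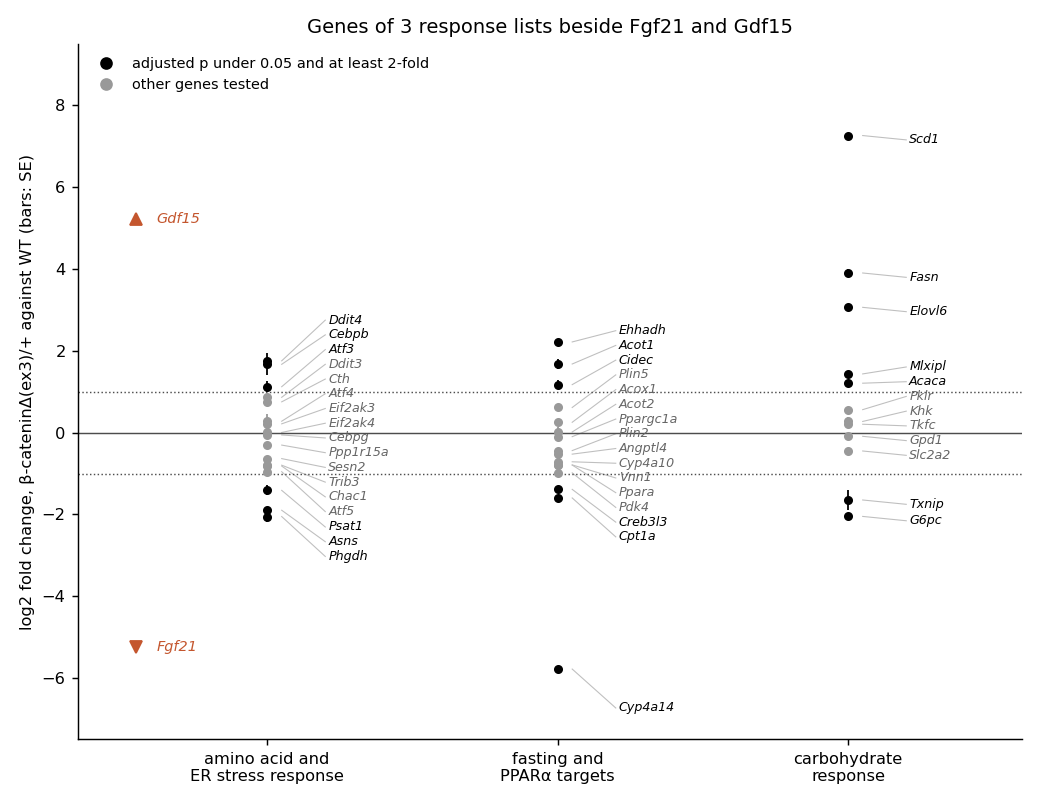
Log2 fold change with standard error of the genes tested in the stress, fasting and carbohydrate response lists (black, past both thresholds; grey, other), with *Gdf15* and *Fgf21* as triangles at the left and dotted lines at 2-fold. Each list spreads to both sides of 0, and *Cyp4a14* at -5.78 is the only listed gene below *Fgf21*.

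Other liver-secreted hormone genes went both ways. Of 24 tested 8 rose and 5 fell, and the median log2 fold change of 0.22 was -0.027 after quantile normalization. *Orm1*, an acute phase carrier protein gene, went from 0.880, 0.578 and 0.676 FPKM to 1816, 1857 and 1888 FPKM. *Igfbp1*, which binds insulin-like growth factors, fell with a log2 fold change of -5.79. *Cfd*, adipsin, which adipocytes also make, rose with 5.46, and *Adipoq* moved with it. *Tsku*, tsukushi, rose with 5.36; WT replicate 1 had 3.43 FPKM against 0.245 and 0.245 FPKM in the other WT livers. *Apoh*, the most abundant in WT livers, had a log2 fold change of -0.53, under 2-fold.

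Receptors and receptor-related genes were mostly scarce in the liver itself. Of 15 such genes found by name, 7 passed the filter and were tested, of which 1 rose and 0 fell. At a pseudocount of 0.1 2 were higher and 1 lower, with log2 fold changes of 1.19 for *Lag3*, the FGL1 receptor, and -1.14 for *Calcrl*. The gene that rose was *Egfr*, the most abundant in *β-cateninΔ(ex3)/+* livers, from 3.68 ± 0.166 to 24.8 ± 0.254 FPKM (SD, n = 3). It encodes the receptor of epidermal growth factor, which is not among the 10 hormones. *Stra6*, *Lrp2*, *Lrp8*, *Ret* and *Acvr1c*, which serve RBP4, selenoprotein P, GDF15 and activins elsewhere, were under 0.1 FPKM in every liver.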

How the data were processed

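RNA of 3 WT and 3 *β-cateninΔ(ex3)/+* livers was compared, grouped by the sample labels. The authors deposited FPKM per gene and liver; their poly(A) libraries marked strand and were read as pairs. The submitters' processing notes name cutadapt 1.9, HISAT2 2.0.4, StringTie 1.3.4d, DESeq2 and edgeR, without roles; the build is not given in the sources used here. FPKM are not counts, so limma 3.58.1 (lmFit, eBayes with a trend, R 4.3.3) was fitted to log2(FPKM + 1) of all genes with a mean of at least 0.5, with the thresholds of the study's methods, and was tested on simulated data. The study's methods give 3 mouse livers per group, so p-values rest on the spread between livers. Columns not matched to a liver numbered 0.
The members, lists and tests were chosen with earlier results of these data known. The text names each member, 5 genes most like *Fgf21*, and genes that check the labels. Of each list it names the most abundant gene by the mean over all livers and up to 4 called genes of largest change. In the stress response list and the list of other TGF-β family ligands all called genes are named. Receptors, neighbours, the fibrinogen chains, *Acvr2a*, *Fst*, *Inha*, *Klb*, *Fgfr3*, *Fgfr4*, *Trib3*, *Chac1*, *Selenon*, *Lag3*, *Calcrl*, *Alb*, *Hnf4a*, *Atf4*, *Ddit3* and *Adipoq* were added after values were seen. Coordinates are those of the deposited table, whose gene limits match GENCODE M21 (GRCm38) for most genes. Where a listed symbol had 2 rows, 1 was used. Python 3.11.15, pandas 2.3.3, scipy 1.17.1 and matplotlib 3.10.9 were used. Alternatives were another pseudocount, other filters, quantile normalization or median-ratio scaling, eBayes with no trend, a replicate block, leaving out each liver, and no fold threshold. The mouse protein sequences were not used here. One listed gene is not reported here and was left out of its list.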

Additional observations from a re-analysis of the deposited data

How the results depend on the processing

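Over the 10 hormone genes and the 13 alternative fits, all 130 log2 fold changes kept their direction and their side of the thresholds. *Fgf21* ranged from -7.66 to -5.15 and *Gdf15* from 5.02 to 5.74, both farthest out at a pseudocount of 0.1, while *Inhba* ranged from -0.47 to -0.27 with adjusted p-values from 0.00328 to 0.0411. *Inhbe*, nearest to 2-fold, ranged from -1.33 to -1.03. Without the fold threshold 2 hormone genes were higher and 8 lower, and 4952 and 2599 of all genes. A pseudocount of 0.1 gave 1706 higher and 999 lower genes, against 1082 and 598; this follows from the smaller pseudocount, which widens the fold changes of low genes. With the replicate number as a replicate block, *Fgf21* kept -5.25 and *Gdf15* 5.22, with 1 hormone gene higher and 4 lower. No label ties same-numbered livers, and their deviations from the group means correlated with a mean r of 0.0142. So few pairs cannot show whether same-numbered livers shared a batch. The block called 1075 genes higher and 598 lower. Depth is an estimate, which limits the fragment numbers given for *Fgf21* but does not enter its FPKM or log2 fold change.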
